A study of Mus musculus with 4 samples.

Results

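Genes that read CpG methylation or help to copy it were examined in wild-type mouse B cells. The 9 genes were Uhrf1, Uhrf2, Mbd1, Mbd2, Mbd3, Mbd4, Mbd5, Mbd6 and Zbtb4, which were listed by name among the 20599 gene symbols of the RNA-Seq tables, and the DNMT and TET enzymes were left out of the list. All 9 were found, each as a single gene entry, and all 9 passed the filter on low counts. RNA-Seq libraries came from B1a cells of the peritoneal cavity (n = 2) and from follicular B2 cells (n = 2) of wild-type C57BL/6 mice, labelled as 4 weeks old. The methods describe the mice as littermate controls of Dnmt3a-deficient animals and give 2 mice for each group. They name the spleen as the source of the B2 cells, and give the B2 mice an older age than the label does. Elsewhere the methods name C57BL/6J mice as the controls. A supplementary legend on repertoires taken from RNA-Seq reads gives an age of 4 weeks for B1a and B2 cells alike. In every comparison of the groups, the effects of cell type and of tissue, and of age if the methods are followed, cannot be told apart.

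UHRF1 binds hemimethylated CpGs behind the replication fork through its SRA domain and brings DNMT1 to the daughter strand, and UHRF2 is its paralog. The methyl-CpG binding domain proteins share a fold but not a function. MBD1 and MBD2 bind methylated CpGs, MBD3 is a subunit of the NuRD chromatin remodelling complex and binds methylated CpGs poorly in mammals, MBD4 is a glycosylase that removes thymine or uracil from mismatches at CpGs, and MBD5 and MBD6 associate with the BAP1 deubiquitinase complex without binding methylated DNA. ZBTB4 reads methylated CpGs through zinc fingers.

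The sequences just before the start sites of 4 of these genes are shown. Mbd5, Mbd6 and Zbtb4 are among the 4 genes with the smallest p-values below. Uhrf1, a maintenance factor, has the smallest log2 fold change of the 9 between the cell types. Each run of 120 bases is from RefSeq on GRCm38.p6, 5′ to 3′ on the strand of the gene, and ends before the first annotated exon near that start. CpGs are in capitals.
Uhrf1 chr17:56303201-56303320, plus strand: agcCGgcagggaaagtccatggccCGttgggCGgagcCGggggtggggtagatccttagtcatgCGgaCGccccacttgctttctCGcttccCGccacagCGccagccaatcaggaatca
Mbd5 chr2:48949379-48949498, plus strand: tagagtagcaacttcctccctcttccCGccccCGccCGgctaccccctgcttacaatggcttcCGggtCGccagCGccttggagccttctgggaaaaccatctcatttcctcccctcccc
Mbd6 chr10:127289019-127289138, minus strand: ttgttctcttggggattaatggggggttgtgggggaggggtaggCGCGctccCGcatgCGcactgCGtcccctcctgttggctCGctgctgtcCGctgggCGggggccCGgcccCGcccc
Zbtb4 chr11:69765792-69765911, plus strand: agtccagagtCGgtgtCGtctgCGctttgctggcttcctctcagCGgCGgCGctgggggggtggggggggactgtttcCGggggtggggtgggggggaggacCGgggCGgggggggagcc
Windows of 300 bases (250 before to 50 after the start) were found in the RefSeq promoter table for 7 of the 9 genes, with 10 start sites in all. They held between 4 and 44 CpGs, and 9 of the 10 were above the median of 7 CpGs over 32851 windows of the same length. Only the second start of Mbd5, with 4 CpGs, was below it. The E2F-type strings TTCCCGC and TTGGCGC, searched on both strands, were present in 4 windows (Uhrf1 and Mbd5 at their first starts, Mbd4 and Zbtb4) and in 1 window (Uhrf2). The shares of all windows with them were 4.60% and 2.45%, with either string in 6.81%, or in 14.2% of the 13006 windows with at least 12 CpGs, since both strings hold a CpG. In the runs above, TTCCCGC lies on the strand shown for Uhrf1 and Mbd5. A match of letters is given as a description only.

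Expression was first compared between genes within a cell type, in TPM, the share of a library's transcripts that a gene takes once transcript length is accounted for. In B2 cells, Mbd2 was the most abundant, with 160.1 and 147.0 TPM (153.5 ± 9.27, SD, n = 2), a mean above 90.6% of the tested genes. Mbd3 followed with 97.8 and 105.2 TPM and Mbd4 with 94.25 and 104.3 TPM, and these neighbours overlapped. Below them came Zbtb4 (81.11 and 68.54 TPM), which overlapped with Mbd6 (75.05 and 65.46 TPM). The remaining neighbours in B2 cells were separate in these libraries, with Mbd1 at 56.37 and 62.31, Uhrf2 at 49.67 and 52.91, Mbd5 at 29.59 and 33.15, and Uhrf1 lowest at 13.53 and 17.58 TPM. In B1a cells the order of means was Mbd2, Zbtb4, Mbd1, Mbd3, Mbd4, Uhrf2, Mbd6, Uhrf1 and Mbd5, but the spread was too wide to order most of them. Mbd2 measured 62.43 and 116.5 TPM there (89.5 ± 38.2, SD, n = 2), a range that took in the means of Zbtb4 (86.9 ± 14.2), Mbd1 (76.5 ± 6.03) and Mbd3 (71.6 ± 27.4). The low pair stood apart in B1a cells, with 15.94 and 12.56 TPM for Uhrf1 and 9.94 and 17.26 TPM for Mbd5, below the 44.17 and 35.4 TPM of Mbd6. The summed TPM of the 6 MBD genes was 316.1 and 383.2 in the B1a libraries and 513.2 and 517.4 in the B2 libraries. The median of all genes on the log2(TPM + 1) scale was itself 0.30 below in B1a cells (log2 difference -0.30), and differences in TPM between the cell types are read relative to that shift.

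**Figure D1:**
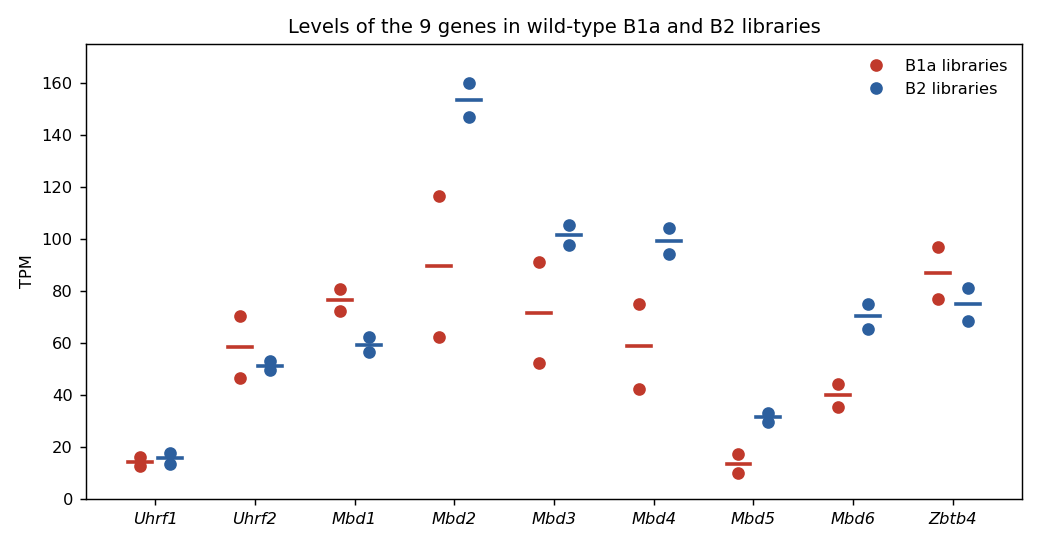
TPM (linear axis) of the 9 genes in each library, with B1a libraries in red, B2 libraries in blue and a bar at the mean of each pair. Mbd2 at 147.0 and 160.1 TPM in B2 cells is the highest, Uhrf1 and the B1a values of Mbd5 are the lowest, and the B1a pairs of Mbd2, Mbd3, Mbd4 and Uhrf2 are spread widely.

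The libraries held between 11032732 and 18588623 counts, so that 3 counts, taken as the smallest amount told from none, correspond to 0.161 to 0.272 CPM (counts scaled to a common library total), and the lowest count of any of the 9 genes in any library was 195. These limits cover counting error only, and the 9 genes lie above them in every library. Some partner genes and markers below, such as Cdca7 and Pclaf in B1a replicate 1, were under 3 counts. Over the tested genes, log2 CPM correlated between the B2 replicates with r = 0.966. Between the B1a replicates r was 0.836, a value inside the range of 0.788 to 0.858 between cell types. The median gene differed between replicates by 0.523 on the log2 scale in B1a cells and by 0.210 in B2 cells, and 5 of the 9 genes exceeded that median in B1a cells (Uhrf2, Mbd2, Mbd3, Mbd4 and Mbd5). Of 6 B cell markers all were abundant, with a summed level of 4846 to 6163 CPM. Among them, Cd79a and Ms4a1 were called higher in B1a cells, and Pax5 and Ebf1 higher in B2 cells. Of 5 B1a markers, 4 were called higher in B1a cells (893 to 1181 CPM summed, against 75.3 to 75.7 CPM). Of 3 genes listed for the follicular sort, 2 (Fcer2a and Cr2) were called higher in B2 cells. Cd93, which the methods' general B2 gate excludes, was higher in both B2 libraries and did not pass (adjusted p of 0.0654, edgeR). Markers of other cells were also present, and some differed. By edgeR, 1 of 8 tested macrophage genes (Lyz2), 1 of 5 erythroid genes and 1 of 2 tested mast cell genes were called, higher in B1a cells. Of the T cell and neutrophil genes tested, 0 were called. The 9 macrophage genes summed to 239 and 272 CPM in the B1a libraries and 71.8 and 77.0 CPM in the B2 libraries, with 8 of them above 3 counts in both libraries of each group and none at 0 in both libraries of a group. The 5 erythroid genes summed to 78.8 and 504 CPM against 36.1 and 80.8 CPM, and the 3 mast cell genes to 34.4 and 6.75 CPM against 0 and 0.941 CPM, with Cma1 and Mcpt4 at 0 in both B2 libraries. The 7 T cell genes found summed to 126 and 70.6 CPM against 86.0 and 84.0 CPM, with Cd4 at 0 in both B1a libraries, and the 4 neutrophil genes to at most 10.9 CPM. Their part in the results below was not tested. In such bulk libraries, fewer cells of a type and less RNA per cell cannot be told apart.

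B1a and B2 cells were then compared by edgeR (quasi-likelihood, p-values adjusted after Benjamini and Hochberg over 12078 genes). None of the 9 genes differed at an adjusted p below 0.05, in a comparison in which 4.24% of the tested genes were called on the B1a side and 1.50% on the B2 side. DESeq2 and limma-voom also called 0 of the 9. At an unadjusted p below 0.05, 4 of the 9 passed: Mbd1 and Zbtb4 were on the B1a side, where 11.7% of all tested genes passed, and Mbd5 and Mbd6 were on the B2 side, where 9.22% did. The smallest adjusted p among the 9 was 0.175. The 9 log2 fold changes (B1a over B2) were between 0.098 and 0.90 in size, 4 above and 5 below 0, with a median of -0.26 beside -0.028 over all tested genes, whereas the genes called in the comparison had a median size of 1.56. By CPM, both B1a libraries were above both B2 libraries for 3 of the 9 genes (Uhrf2, Mbd1 and Zbtb4), which was so for 25.3% of all tested genes, and the reverse held for 4 (Mbd2, Mbd4, Mbd5 and Mbd6), against 29.0% of all tested genes.

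**Figure D2:**
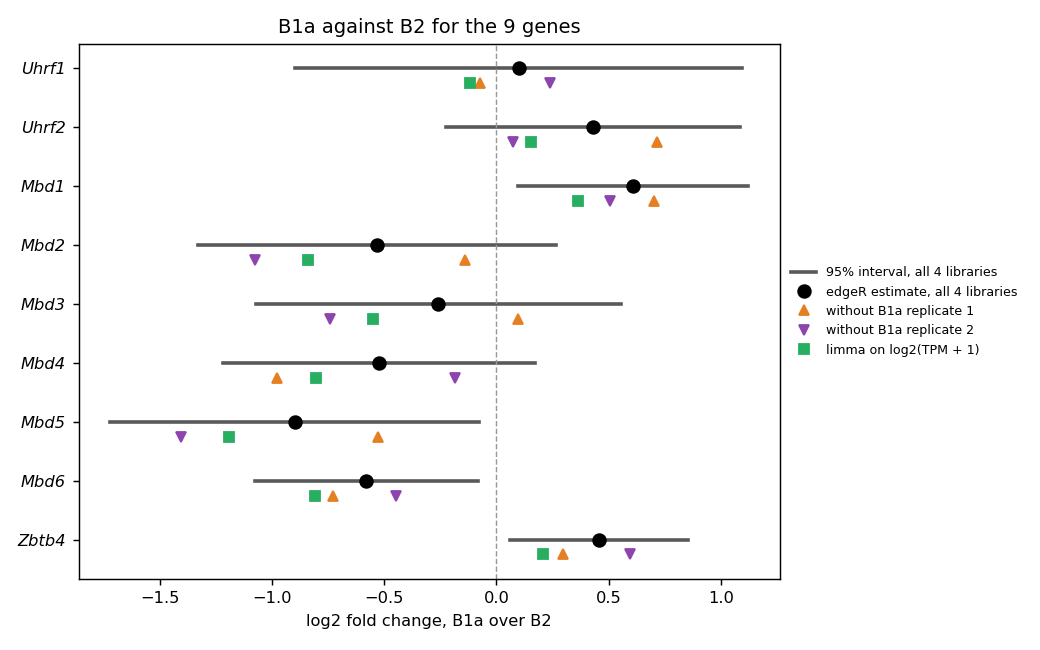
Log2 fold change (B1a over B2) of the 9 genes from edgeR with all 4 libraries (black point, with its 95% interval as a line), and the estimates without B1a replicate 1 (up triangle), without B1a replicate 2 (down triangle) and from limma on log2(TPM + 1) (square). The interval leaves out 0 for Mbd1, Mbd5, Mbd6 and Zbtb4, and the 2 triangles lie on opposite sides of 0 for Uhrf1 and Mbd3.

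The number of the 9 genes called changed when a B1a library was left out. Without B1a replicate 1, edgeR called 5 of the 9 (Uhrf2, Mbd1, Mbd4, Mbd5 and Mbd6), in a fit that called 31.0% of its genes, and without B1a replicate 2 it called 6 (Mbd1, Mbd2, Mbd3, Mbd5, Mbd6 and Zbtb4), in a fit that called 48.9%. In these fits the single B1a library is assumed to vary as little as the B2 libraries do. Mbd1, Mbd5 and Mbd6 were called in both. The counts called in the partner lists below were also higher in these fits, up to 5 of the 7 UHRF1 partners, 7 of the 8 BAP1 complex genes and 7 of the 14 cell cycle markers without B1a replicate 2. With a replicate block, Mbd5 alone of the 9 passed, at a log2 fold change of -0.96 and an adjusted p of 0.0353 by edgeR, where 12.3% of all genes did.

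Uhrf1 (chr17:56303337-56323486), the adaptor that brings DNMT1 to hemimethylated DNA, measured 23.22 and 18.71 CPM in B1a cells and 16.91 and 22.22 CPM in B2 cells. The ranges of the groups overlapped. Its log2 fold change was 0.10 ± 0.40 (SE), with a 95% interval from -0.90 to 1.09 and an adjusted p of 0.929 by edgeR. A change of about the size of the largest among the 9 genes lies inside that interval. The sign was negative on the TPM scale.

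Uhrf2 (chr19:30030430-30093726), the paralog of Uhrf1, measured 69.56 and 108.5 CPM in B1a cells against 63.41 and 68.64 CPM in B2 cells. Replicate 2 of the B1a cells was high, and B1a replicate 1 was just above the B2 libraries by CPM and below both by TPM (46.33 against 49.67 and 52.91). The log2 fold change of 0.43 ± 0.27 did not pass (adjusted p of 0.440, edgeR), and was 0.71 without B1a replicate 1 and 0.073 without B1a replicate 2.

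Dnmt1, the maintenance methyltransferase that UHRF1 brings to DNA, was lower in both B1a libraries, with 49.51 and 48.88 TPM against 95.17 and 78.79 TPM in the B2 libraries. It did not pass the test across all genes (log2 fold change -0.56 ± 0.16, adjusted p of 0.126, edgeR). The TPM ratio of Uhrf1 to Dnmt1 was 0.322 and 0.257 in the B1a libraries and 0.142 and 0.223 in the B2 libraries. The ratio was higher in both B1a libraries, by 0.69 on the log2 scale, but with 2 against 2 the exact two-sided permutation test cannot give a p under 0.33, which is the value it gave. The ratio of Uhrf1 to Uhrf2 was 0.344 and 0.178 against 0.272 and 0.332. Here the groups overlapped, and the exact permutation test gave a p of 1. The ratio of Mbd2 to Mbd3 was 1.196 and 1.28 in B1a cells and 1.64 and 1.40 in B2 cells, so that Mbd2 exceeded Mbd3 in all 4 libraries and by more in both B2 libraries (log2 difference -0.29, p of 0.33 by the exact permutation test). Those 3 ratios were the ones computed, none passed unadjusted, and adjustment over them can only raise their p.

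**Figure D3:**
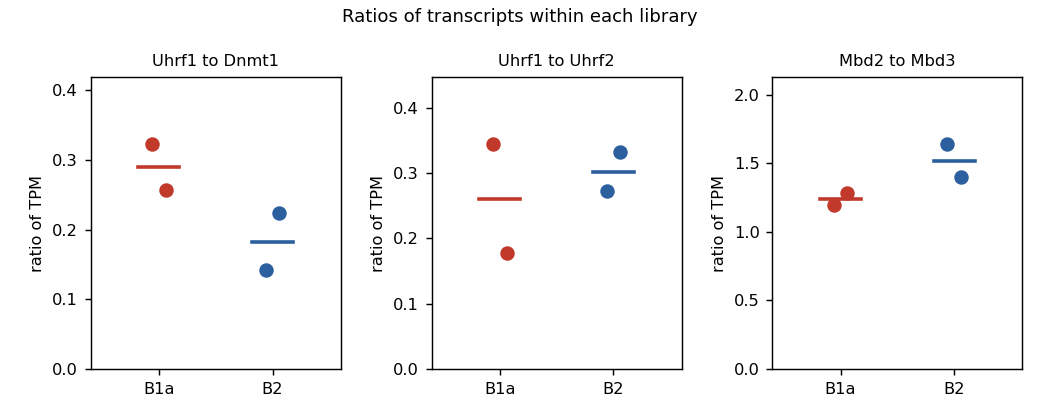
Ratios of TPM within each library for Uhrf1 to Dnmt1, Uhrf1 to Uhrf2 and Mbd2 to Mbd3, with a point per library, a bar at the mean of each pair and axes that start at 0. The B1a and B2 points are separate in the first panel (0.257 and above against 0.223 and below) and in the third (1.28 and below against 1.40 and above), and overlap in the second.

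The other genes of replication-coupled maintenance did not pass either. Of 7 partners of UHRF1, 0 were called in either direction by edgeR, DESeq2 or limma-voom, 1 (Dnmt1) had an unadjusted p below 0.05, and the median log2 fold change was -0.56. Usp7, the deubiquitinase that stabilises UHRF1 and DNMT1, measured 148.3 and 134.4 TPM in B1a cells and 162.7 and 196.8 TPM in B2 cells. By CPM its groups overlapped (log2 fold change -0.11 ± 0.15). Pcna, the sliding clamp of the replication fork, measured 120.3 and 175.9 against 107.6 and 147.8 TPM, and its groups overlapped. Cdca7 and Hells, which form a nucleosome remodeller that methylation maintenance needs, and Pclaf, a PCNA-bound protein that takes part in recruiting DNMT1, split the B1a libraries. In B1a replicate 1 they were at 0, 1.12 and 0.10 TPM, and in B1a replicate 2 at 11.77, 11.34 and 13.4 TPM, beside B2 values of 18.26 to 21.0, 12.71 to 15.56 and 10.03 to 15.32 TPM. B1a replicate 1 also had the fewest genes with a count of 1 or more, 11290 against 12456 to 14223 in the other libraries, and the part of this in the split was not tested. Uhrf1 was at 15.94 TPM in that library and did not split in this way.

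Mbd1 (chr18:74267605-74282737), a reader that also has zinc fingers for unmethylated CpGs, measured 81.39 and 93.26 CPM in B1a cells and 53.95 and 60.59 CPM in B2 cells. Both B1a libraries were above both B2 libraries by CPM and, at 72.28 and 80.80 against 56.37 and 62.31, by TPM, and it was the only gene of the 9 on the B1a side by both measures. The difference of 0.61 ± 0.21 on the log2 scale (1.52-fold, 95% interval 1.07 to 2.17) had an adjusted p of 0.175 by edgeR, the lowest of the 9, and adjusted p-values between 0.144 and 0.286 over 10 other settings with all libraries. Of 4 partners of MBD1 in histone H3 lysine 9 methylation and chromatin assembly that were tested, 0 were called by edgeR, DESeq2 or limma-voom in either direction, 0 at an unadjusted p below 0.05, and the median log2 fold change was -0.036. Atf7ip, the cofactor of SETDB1, measured 181.5 and 183.0 TPM against 239.9 and 230.7 TPM, and Setdb1 itself 50.62 and 41.07 against 53.16 and 50.93 TPM. By the fit their log2 fold changes were small, at -0.13 ± 0.11 and 0.055 ± 0.19. By CPM the groups overlapped for Setdb1. The other two went opposite ways with wide errors, with a log2 fold change of 0.34 ± 0.46 for Suv39h1, a histone methyltransferase, and -0.80 ± 0.77 for Chaf1a, a subunit of chromatin assembly factor CAF-1.

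The genes whose profile over the 4 libraries was most like that of Mbd1, by the root mean square difference of centred log2 CPM among the 8900 genes that averaged 10 CPM or more, were Rpl21 (0.0156), Rpl17 (0.0240), Scly (0.0300), Arl6ip5 (0.0310) and Rpl27 (0.0335). With 4 libraries such likeness is common, and 795 genes lay within 0.2 of Mbd1. Of the 5, Rpl21, Rpl17 and Rpl27 encode ribosomal proteins.

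Mbd2 (chr18:70568225-70629134), the methylated DNA reader of the NuRD complex, measured 48.05 and 91.91 CPM in B1a cells and 104.8 and 97.70 CPM in B2 cells. B1a replicate 1 was low, and B1a replicate 2 lay close to the B2 libraries. The log2 fold change of -0.53 ± 0.32 did not pass (adjusted p of 0.435, edgeR), and was -0.14 without B1a replicate 1 and -1.08 without B1a replicate 2. Mbd3 (chr10:80392539-80399531), which takes the place of MBD2 in a separate form of NuRD, measured 34.24 and 61.24 CPM against 54.56 and 59.65 CPM. Again B1a replicate 1 was low, and B1a replicate 2 was above both B2 libraries by CPM but, at 90.98 against 97.8 and 105.2, below both by TPM. The log2 fold change was -0.26 ± 0.33 (adjusted p of 0.746, edgeR) and changed sign to 0.098 without B1a replicate 1.

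Among 12 other NuRD subunits, 1 was called, lower in B1a cells, 4 had an unadjusted p below 0.05, and the median log2 fold change was -0.062. That subunit was Chd3, a remodelling ATPase, with 48.78 and 47.56 TPM in B1a cells against 126.4 and 115.6 TPM in B2 cells (log2 fold change -1.09 ± 0.13, adjusted p of 0.00867, edgeR). The B2 libraries were 2.13-fold higher by the fit. Chd4, the alternative ATPase of the complex, was at 246.4 and 205.1 TPM against 340.0 and 305.4 TPM and did not pass (adjusted p of 0.294, edgeR). In the other direction, Mta1, a subunit that scaffolds the histone deacetylases, was at 70.84 and 67.22 TPM against 51.50 and 41.48 TPM, higher in both B1a libraries, and did not pass (0.81 ± 0.22, adjusted p of 0.110, edgeR). The related Mta2 and Mta3 were lower in both B1a libraries. They did not pass either (-0.46 ± 0.15 and -0.555 ± 0.22, adjusted p of 0.154 and 0.2225, edgeR). Chd3 passed in each of the 10 other settings and without any single library.

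Mbd4 (chr6:115840697-115853400), the mismatch glycosylase, measured 114.1 and 65.92 CPM in B1a cells and 121.9 and 137.0 CPM in B2 cells. Here the low library was B1a replicate 2, and B1a replicate 1 lay just under the B2 values. The difference, -0.52 ± 0.28 on the log2 scale, had an adjusted p of 0.374 by edgeR and ran from -0.18 without B1a replicate 2 to -0.98 without B1a replicate 1. The opposite-strand gene Ift122 overlaps the annotated span of Mbd4 by 22 bases and was at 1.56 to 8.79 CPM. The posterior SD that RSEM gives for divided reads was at most 1.81% of the Mbd4 count, against at most 0.251% for the other 8 genes.

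Of 9 base excision and mismatch repair partners of MBD4, 1 was called, lower in B1a cells, and the median log2 fold change was -0.51. Parp1, which detects DNA strand breaks and signals to repair, measured 167.7 and 166.1 TPM against 348.9 and 293.0 TPM (log2 fold change -0.70 ± 0.13, adjusted p of 0.0376, edgeR). It passed in each of the 10 other settings with all libraries but not without B2 replicate 1 (-0.58, adjusted p of 0.347, edgeR). Tdg, the other thymine glycosylase that acts at CpGs, measured 11.75 and 17.19 TPM against 37.52 and 29.77 TPM. Its groups did not overlap, and it did not pass (adjusted p of 0.2003, edgeR).

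Mbd5 (chr2:48949499-49319688) had the largest difference of the 9 genes. It measured 29.13 and 53.51 CPM in B1a cells and 73.12 and 80.82 CPM in B2 cells, so that both B1a libraries were below both B2 libraries and B1a replicate 1 was the lowest. The log2 fold change was -0.90 ± 0.33 (1.86-fold higher in B2 cells, adjusted p of 0.204, edgeR), with -0.53 without B1a replicate 1 and -1.40 without B1a replicate 2. Its adjusted p-values were between 0.0353 and 0.215 over the 10 other settings with all libraries. Orc4, a subunit of the origin recognition complex that starts on the opposite strand, shares 136 exon bases with Mbd5 in GENCODE and measured 26.62 and 41.64 CPM in B1a cells and 58.29 and 60.48 CPM in B2 cells. Both B1a libraries were thus low for both genes. The methods name a stranded kit but not whether strand was used in counting. The posterior SD for divided reads was at most 0.0308% of the Mbd5 count.

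Mbd6 (chr10:127281956-127290869), the paralog of Mbd5, measured 76.02 and 62.50 CPM in B1a cells and 109.8 and 97.28 CPM in B2 cells. Both B1a libraries were below both B2 libraries, and unlike Mbd5 the B1a replicates lay within 1.22-fold of each other. The log2 fold change was -0.58 ± 0.20 (1.50-fold higher in B2 cells, adjusted p of 0.182, edgeR), from -0.45 to -0.73 with either B1a library left out. Ddit3, a stress-response factor whose annotated span overlaps that of Mbd6 by 77 bases on the other strand with 0 shared exon bases in GENCODE, was at 2.33 to 18.6 CPM.

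The BAP1 complex that MBD5 and MBD6 join had 5 genes with a log2 fold change above 0 and 3 below. Of 9 listed genes 8 were tested, 0 were called by edgeR and 2 by DESeq2, 4 had an unadjusted p below 0.05 (Asxl1, Ogt, Foxk1 and Hcfc1), and the median log2 fold change was 0.14. Asxl3 was at 0 counts in all 4 libraries. Ogt, the O-GlcNAc transferase, measured 328.8 and 288.1 TPM in B1a cells and 264.4 and 271.4 TPM in B2 cells (log2 fold change 0.44 ± 0.11, adjusted p of 0.0950, edgeR). Hcfc1, a chromatin scaffold protein, measured 67.18 and 82.60 against 119.1 and 122.0 TPM (-0.44 ± 0.15, adjusted p of 0.174, edgeR), the opposite direction. Asxl1, a subunit that activates BAP1, came nearest to the threshold with 78.63 and 83.07 TPM against 61.52 and 61.24 TPM (0.64 ± 0.14, adjusted p of 0.0550, edgeR).

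Zbtb4 (chr11:69765912-69784026) measured 325.4 and 264.5 CPM in B1a cells and 231.5 and 198.7 CPM in B2 cells. Both B1a libraries were above both B2 libraries by CPM, but by TPM the groups overlapped, with 96.91 and 76.83 against 81.11 and 68.54. For Zbtb4 the log2 fold change was 0.46 ± 0.16 (1.37-fold, adjusted p of 0.187, edgeR). On log2(TPM + 1) it was 0.21, or 0.50 above the median of all genes on that scale. Relative to that median, Uhrf1 was 0.18 above and Mbd5 0.90 below, so that the signs of the 9 genes were those of the CPM comparison.

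A reader outside the list of 9 did pass the test. Of 6 genes tested among other readers and corepressors, 1 was called, with a median log2 fold change of -0.20. Zbtb38, a zinc finger reader of the same family as ZBTB4, measured 118.1 and 99.79 TPM in B1a cells and 43.99 and 35.58 TPM in B2 cells. Both B1a libraries were more than every B2 value, by 3.24-fold in the fit (log2 fold change 1.70 ± 0.19, adjusted p of 0.00703, edgeR), and Zbtb38 passed in each of the 10 other settings and without any single library. Zbtb33, which encodes the reader Kaiso of that family, measured 12.18 and 20.81 against 33.39 and 47.58 TPM, lower in both B1a libraries, and did not pass (-1.08 ± 0.36, adjusted p of 0.169, edgeR).

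Since Uhrf1 is known to rise in cycling cells, cell cycle markers were set beside it. Of 14 markers, 1 was called, higher in B1a cells, 8 log2 fold changes were above 0 and 6 below, and the median was 0.14. Mki67, which marks cycling cells, measured 24.31 and 19.70 TPM in B1a cells and 6.36 and 10.83 TPM in B2 cells (log2 fold change 1.59 ± 0.32, adjusted p of 0.0488, edgeR). It was close to the threshold, passed in 6 of the 10 other settings, and did not pass without B2 replicate 1 (1.249, adjusted p of 0.169, edgeR). Top2a, a topoisomerase of dividing cells, measured 16.58 and 14.96 against 7.74 and 12.49 TPM, whereas Mcm5, a subunit of the replicative helicase, measured 16.29 and 17.42 against 44.80 and 25.77 TPM. Neither passed (adjusted p of 0.271 and 0.279, edgeR). The groups were separate for Mki67, Top2a and Mcm5. The other listed helicase subunits did not all go the way of Mcm5. Mcm6 was higher in both B1a libraries, at 67.04 and 49.84 against 49.64 and 44.08 TPM (0.56 ± 0.24, adjusted p of 0.270, edgeR). By CPM, Mcm3 was also higher in both B1a libraries, Mcm2 was lower in both, and the groups overlapped for Mcm4 and Mcm7. At low levels, Ccnb1 (0 and 0.18 against 0.954 and 1.52 CPM) and Cdk1 (0.896 and 0.270 against 1.82 and 1.52 CPM) were lower in both B1a libraries. Ccna2 was higher in both (13.6 and 7.105 against 2.52 and 4.18 CPM). Ccnb1, Cdk1 and Ccna2 did not pass (adjusted p of 0.394, 0.6655 and 0.380, edgeR). For Uhrf1 the groups overlapped, and a link of its level to cycling was not tested.

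**Figure D4:**
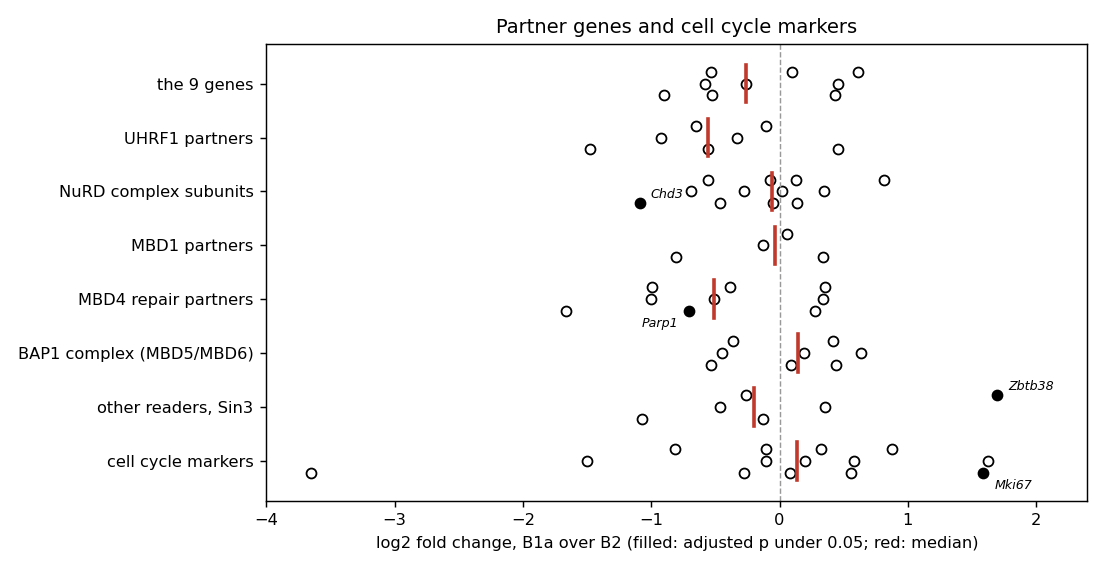
Log2 fold change (B1a over B2) of each tested gene of the 9, of their partner lists and of the cell cycle markers, with genes at an adjusted p below 0.05 filled and named, and the median of each list in red. Chd3 at -1.09 and Parp1 at -0.70 are filled to the left of 0, Zbtb38 at 1.70 and Mki67 at 1.59 to the right, and no gene of the 9 is filled.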

How the data were processed

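RNA was measured in 4 libraries, 2 replicates each of wild-type B1a and follicular B2 cells, grouped by the sample labels. For each library the authors deposited an RSEM expected count (not normalized) per RefSeq gene entry on mm10, a posterior standard deviation of that count as a signal value, and TPM, which RSEM scales to the same total in each library. FPKM and posterior mean estimates were deposited and not used. The submitters' processing notes give RSEM 1.2.29 and the methods another version. The labels name a ribosomal RNA depletion kit, whereas the paper writes of enriched polyadenylated RNA. Whether strand was used in counting is not given in the sources used here.

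Here 21970 entries were summed to 20599 symbols, rounded, filtered with filterByExpr, scaled by TMM (factors 0.963 to 1.05) and tested with edgeR 4.0.16 in R 4.3.3 (quasi-likelihood, no block, threshold 0.05, Benjamini-Hochberg over 12078 genes), in place of the EBSeq test of the methods. The common biological coefficient of variation was 0.507. Standard errors come from the F statistic. CPM use the TMM factors. Ratios were tested by exact permutation over libraries (scipy 1.17.1). All tests were two-sided. P-values of the fits rest on the spread between 2 replicates per group, with variance estimates shared in part over all tested genes. With a library left out, its group has no spread of its own. The permutation p-values rest on how the libraries can be assigned to groups. Alternatives were DESeq2 1.42.0, limma 3.58.1 (voom, a weight per cell type, log2(TPM + 1) and log2(TPM + 0.1) at a mean TPM of at least 1), upper quartile factors, other filters, unsummed entries, a replicate block, and each library left out in turn.

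The genes and lists were chosen with earlier results of these data known. Named partners are the called genes of each list, otherwise its 2 highest by mean TPM, plus Dnmt1, Pcna and Mki67, and the 5 genes most like the gene with the lowest p. Chd4, Mta1, Suv39h1, Chaf1a, Top2a, Mcm5, Tdg, Asxl1, Foxk1, Zbtb33, Cdca7, Hells and Pclaf, and the genes overlapping Mbd4, Mbd5 and Mbd6, were named after their values were seen. So were Mta2, Mta3, Mcm2, Mcm3, Mcm4, Mcm6, Mcm7, Ccna2, Ccnb1, Cdk1 and the single markers of cell types. Pclaf is listed under an older symbol. The values of 1 gene of the partner lists are not reported here. Promoters of Mbd1 and Mbd2 were not used here. Positions are RefSeq GRCm38.p6, the build of mm10.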

Additional observations from a re-analysis of the deposited data

How the results depend on the processing

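The count of genes called by edgeR (693; 512 higher in B1a and 181 higher in B2) was 1562 (1011 and 551) by DESeq2, 1415 (1054 and 361) by limma-voom with a weight per cell type, 1141 (779 and 362) without a filter and 359 (196 higher in B1a) by limma on log2(TPM + 0.1). It was 266 higher in B1a on log2(TPM + 1), and higher in B2 for 279 with at least 10 counts in every library and 278 by limma-voom. With a library left out it ran from 539 to 6143 (394 to 2787 and 144 to 3356), with 3953 without B1a replicate 1 and 6143 without B1a replicate 2. The replicate block called 1481 genes (889 and 592) and 1 of the 9 genes, Mbd5. No pairing of same-numbered libraries is stated. Their deviations from the group means correlated with r = -0.0347, but with 2 pairs this cannot show whether a pairing exists.

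Of the 9 genes, 0 to 6 were called with a library left out, 5 and 6 without B1a replicates 1 and 2, and 0 without either B2 replicate. Of 126 values of their log2 fold changes under alternatives, 109 kept direction and side of the threshold, 12 passed it, and 5 changed sign. Uhrf1 was at -0.1235 and -0.1165 on log2(TPM + 0.1) and log2(TPM + 1) and from -0.0852 to 0.3029 with a library left out, and Mbd3 from -0.7399 to 0.0981. The cause was not tested. 

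Settings added after seeing the data were the remaining ones for the partner lists. All alternatives for Chd3, Parp1, Zbtb38 and Mki67, and the ratios with a library left out, were also added then. Of the NuRD subunits 3 were called by limma-voom with a weight per cell type and 2 with the block. Of the BAP1 complex genes 2 were called by DESeq2, limma-voom with or without weights and the block, and 1 with at least 10 counts or no filter. Of the other readers and corepressors 2 were called with the block, and of the cell cycle markers 0 on either TPM scale, with upper quartile factors or unsummed. With a library left out the counts ran from 0 to 5 (UHRF1 partners), 1 to 6 (NuRD), 0 to 1 (MBD1 partners), 0 to 4 (repair), 0 to 7 (BAP1 complex), 1 to 4 (other readers) and 0 to 7 (cell cycle), highest without a B1a library and at 0 for repair and cell cycle without B2 replicate 1. The log2 ratio differences ran from -0.7546 to 0.1936 for Uhrf1 to Uhrf2, from 0.3663 to 1.017 for Uhrf1 to Dnmt1 and from -0.4037 to -0.1755 for Mbd2 to Mbd3. For these too the cause was not tested.

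With 2 libraries per group, and B1a replicates that differ by 0.523 on the log2 scale for the median gene, the intervals of the 9 genes stayed wide. The lowest count of any of the 9 genes in any library was 195, and the part of depth in these intervals was not tested.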
